A study of Mus musculus with 16 samples.

Results

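Macrophages carry C-type lectin receptors, membrane proteins with a domain that binds sugars or lipids of microbes and dying cells. Clec4e (Mincle), Clec4d (MCL) and Clec4n (Dectin-2) signal through the adaptor FcRγ, encoded by Fcer1g, Clec5a (MDL-1) through DAP12 (Tyrobp) and DAP10 (Hcst), and Clec7a (Dectin-1) through a motif in its own tail, and these routes meet at the kinase Syk and the CARD9-BCL10-MALT1 complex, which activates NFκB. Clec4a2 (DCIR) and Clec12a (MICL) carry inhibitory motifs that recruit phosphatases. In macrophages Clec4e is known as a receptor for mycobacterial cord factor whose mRNA is induced by Toll-like receptor ligands.

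The 7 genes named above were chosen by name, each had 1 probe on the array, and all 7 are described here out of 15877 genes tested. Of the 7, 5 passed the filter on dim probes and were tested. Clec4a2 and Clec12a did not.

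The experiment used RAW264.7 cells, a macrophage-like line derived from a mouse tumour, so that every culture came from 1 cell line. Cells held in low-serum medium received either 20 µM cordycepin, an adenosine analogue that inhibits polyadenylation, or its vehicle DMSO for 60 min, and then either 1 µg/ml LPS, a bacterial ligand of Toll-like receptor signalling, or no LPS for a further 60 min. Cultures without LPS are named DMSO or cordycepin after what they received, those with LPS are named LPS+DMSO or LPS+cordycepin, and every culture was harvested after 120 min in drug or vehicle. Each condition had 4 biological replicates on 1-colour Agilent arrays, and per the series' design text each replicate number stands for a different day of collection, with all 4 conditions in wells of 1 plate per the treatment protocol. Levels are given as log2 signal, scaled to a common 75th percentile, and a change is a difference between condition means on that log2 scale. A gene was called when the Benjamini-Hochberg adjusted p of limma over all genes tested was under 0.05 and the change at least 2-fold.

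Between 21999 and 30362 of 59305 spots were well above background on the 16 arrays, none was saturated, and the arrays of replicates 3 and 4, on a second slide, had more such spots (27151 to 30362) than those of replicates 1 and 2 (21999 to 26055). Each slide carried all 4 conditions. All 10 macrophage markers examined (among them Adgre1, Csf1r, Cd68 and Spi1) were well above background on all 16 arrays, with a summed log2 signal of 17.87 to 18.63. Of 24 markers of other cell types, 13 were well above background on no array, including Ms4a1, Ncr1, Ly6g and Xcr1, and 3 on all arrays (Cd3e, Cd4 and S100a8). The summed log2 signal of those 24 lay at 10.86 to 11.24 in DMSO, 10.88 to 11.33 in cordycepin, 10.96 to 11.17 in LPS+DMSO and 10.81 to 12.10 in LPS+cordycepin, where the mean of the B cell marker Cd79a was 8.96 against 5.92 to 6.32 in the other conditions.

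All 7 genes lie on chromosome 6. On mm9, the build of the array files, the Clec4e probe is at chr6:123232878-123232937 on the minus strand, and the Clec4d probe at chr6:123224788-123224847 and the Clec4n probe at chr6:123196969-123197028 on the plus strand. The probes of Clec4d, Clec4n and Clec4a2 (chr6:123093890-123093949, plus strand) were thus 8.0, 35.8 and 138.9 kb from that of Clec4e, in a cluster of related genes. Clec7a (chr6:129411739-129411798, minus strand) and Clec12a (chr6:129314880-129314939, plus strand) belong to another cluster, and Clec5a (chr6:40525116-40525175, minus strand) lies apart from both.

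Clec4e was called with LPS and its close neighbour Clec4d was not, so the 250 bases before their RefSeq start sites (GRCm38.p6) are shown. The Clec4e window is chr6:123289872-123290121 on the minus strand and the Clec4d window chr6:123261857-123262106 on the plus strand, each written 5′ to 3′ along its gene. Capitals mark every match, on either strand, to a C/EBP motif (TTNNGCAA), a PU.1 motif (GAGGAA, read TTCCTC on the opposite strand) or a TATA box (TATAAA).
Clec4e: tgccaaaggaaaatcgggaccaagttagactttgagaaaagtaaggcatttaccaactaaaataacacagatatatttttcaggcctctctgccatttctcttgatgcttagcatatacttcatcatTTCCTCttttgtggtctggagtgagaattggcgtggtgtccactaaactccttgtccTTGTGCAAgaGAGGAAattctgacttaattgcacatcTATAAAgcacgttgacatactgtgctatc
Clec4d: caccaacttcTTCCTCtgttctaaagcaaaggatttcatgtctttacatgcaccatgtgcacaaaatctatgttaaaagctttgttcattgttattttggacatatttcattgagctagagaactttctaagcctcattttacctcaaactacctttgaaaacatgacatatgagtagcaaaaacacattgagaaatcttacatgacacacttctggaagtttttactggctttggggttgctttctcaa
The Clec4e window held a C/EBP match beginning at -66, PU.1 matches at -123 and -56 and a TATA box match at -29, counted back from the start site. The Clec4d window held a single PU.1 match at -240. Over 32851 RefSeq windows of this length, the C/EBP motif occurred in 9.56%, the PU.1 motif in 23.3% and the TATA box in 12.4%. RefSeq entries were found for 6 of the 7 genes, all but Clec4n. The PU.1 letters were present in 5 of them, the C/EBP letters in Clec4e and Clec12a, and the TATA letters in Clec4e, Clec5a and Clec4a2. An AP-1 motif (TGACTCA, 4.46% of windows) and an NFκB motif (GGAATTTCC, 0.286%) occurred in none of the 6. At such low shares none of 6 is the likely count, and only exact matches were sought, so sites of other sequence could be present. None of these motifs overlapped another in the Clec4e and Clec4d windows.

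The first question was which receptors responded to 60 min of LPS. Clec4e rose, and none of the other 4 receptors tested was called. Of the 5, 1 was called higher, against 2.09% of all genes called higher and 4.59% called in either direction. Clec4e had log2 signals of 12.72, 13.76, 12.53 and 12.56 in DMSO (replicates 1 to 4) and of 15.59, 15.67, 15.54 and 15.64 in LPS+DMSO. The LPS+DMSO arrays lay within a narrow band far above all DMSO arrays, of which replicate 2 stood above the other 3. The mean went from 12.89 ± 0.59 to 15.61 ± 0.06 (SD, n = 4 each), a change of 2.72 (SE 0.20, 95% interval 2.29 to 3.15, adjusted p = 1.39e-07 by limma) or 6.58-fold. By size of rise Clec4e was number 84 of the 332 genes called higher with LPS. RNA came from whole cultures, so fewer cells expressing a gene and less RNA per cell cannot be told apart.

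**Figure D1:**
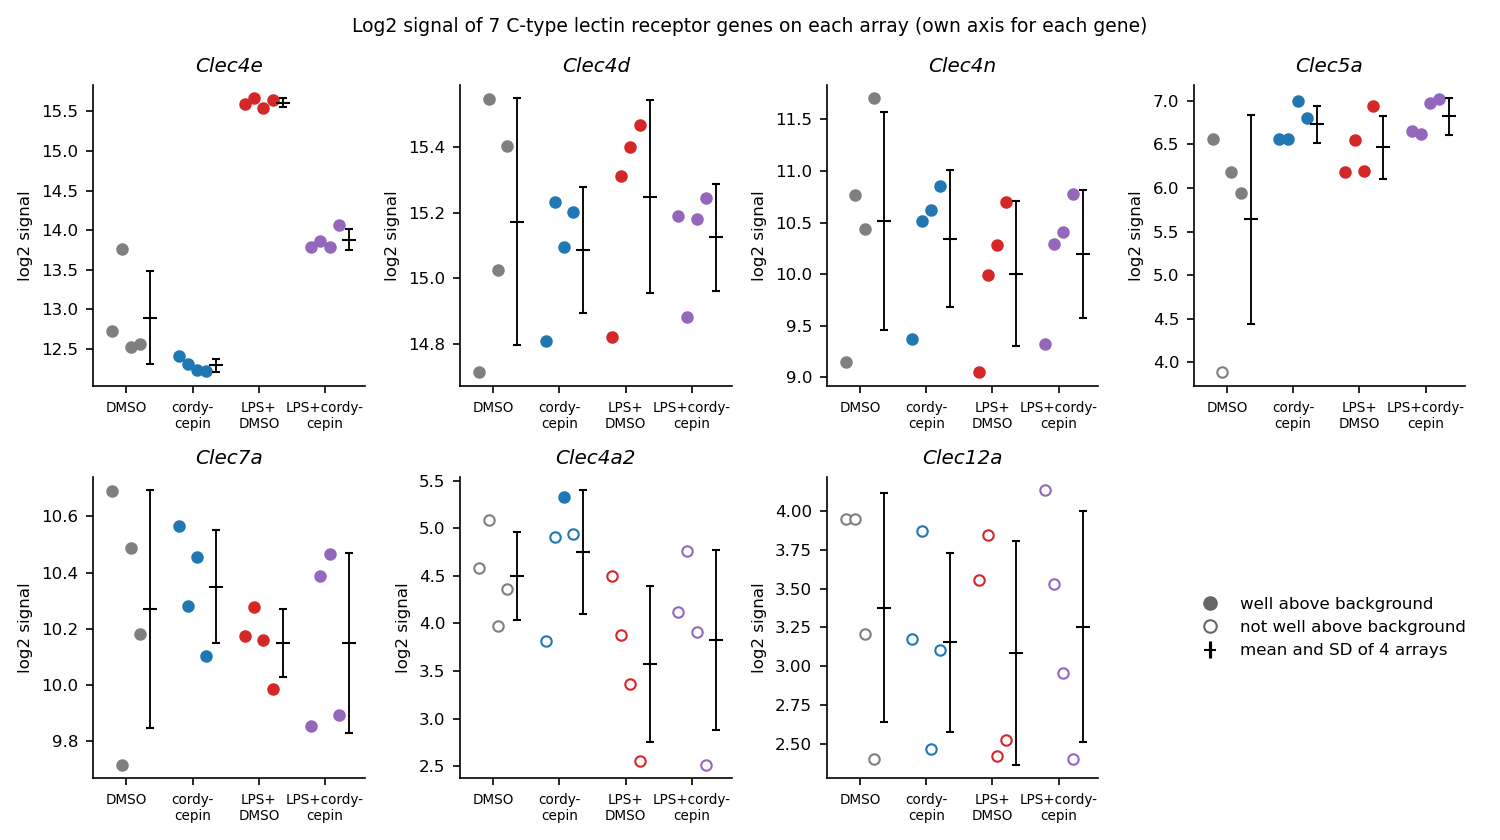
Log2 signal of each receptor gene on each of the 16 arrays (points, replicates 1 to 4 from left to right within a condition; open points were not well above background), with mean and SD of 4 arrays in black and an own axis for each gene. Clec4e is at 15.54 to 15.67 in LPS+DMSO and at 13.78 to 14.07 in LPS+cordycepin, above every array without LPS, while the conditions overlap for the other genes.

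The second question was how cordycepin changed these mRNAs in cells given LPS. Clec4e was again the receptor that moved. In LPS+cordycepin it had log2 signals of 13.79, 13.86, 13.78 and 14.07, a mean of 13.88 ± 0.13 (SD, n = 4). Every one of these arrays lay below every LPS+DMSO array and, by a small distance in the case of DMSO replicate 2, above every DMSO array. The change against LPS+DMSO was -1.73 (SE 0.20, 95% interval -2.16 to -1.30, adjusted p = 1.05e-05), or 3.33-fold lower. Of the 5 receptors 1 was called lower, against 1.52% of all genes called lower and 7.46% called in either direction. Among the 242 genes called lower, Clec4e was number 43 by size of fall. Of the 332 genes called higher with LPS, 68 (20.5%) were called lower with cordycepin, and Clec4e was number 24 of the 332 by size of fall. The difference was -1.80, -1.81, -1.76 and -1.57 on the 4 days, so it varied little from day to day.

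Without LPS, the difference of Clec4e between cordycepin and DMSO missed the threshold. The cordycepin arrays had log2 signals of 12.41, 12.30, 12.23 and 12.22 (mean 12.29 ± 0.09, SD, n = 4), and each lay below the lowest DMSO array. The change was -0.60 (SE 0.20, 95% interval -1.03 to -0.17), with an adjusted p of 0.0565. With the replicate number as a block the adjusted p was 0.0467 and with the slide as a block 0.0427, and the change remained under 2-fold. Without DMSO replicate 2 it was -0.31 with an adjusted p of 0.0247. None of the 5 receptors was called in cordycepin against DMSO by limma, against 5.55% of all genes, while 2 (Clec4e and Clec5a) had an unadjusted p under 0.05. The share of all genes at that looser threshold was not counted. It is at least 15.8%, the share with an adjusted p under 0.05.

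In the presence of cordycepin LPS still raised Clec4e, from 12.29 to 13.88, by 1.58 (SE 0.20, 95% interval 1.15 to 2.02, adjusted p = 7.19e-05) or 3.00-fold. The LPS+cordycepin arrays did not overlap the cordycepin arrays, and the differences on the 4 days were 1.38, 1.56, 1.55 and 1.85. Of the 5 receptors, 1 was called higher, against 1.69% of all genes called higher and 2.91% called in either direction. With the arrays scaled to the spiked-in controls, where the median of all genes was -0.35 in this comparison, this change was 1.29 with an adjusted p of 0.0526, and within the first slide it was 1.47 with an adjusted p of 0.0665, so that the call was lost under both. The levels of Clec4e thus ran from cordycepin through DMSO and LPS+cordycepin to LPS+DMSO, and of the neighbours in that order compared here cordycepin and DMSO did not differ past the threshold. DMSO and LPS+cordycepin were not compared by a test.

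Whether cordycepin changed the size of the LPS response was tested as the interaction, that is the change with LPS in cells given cordycepin minus the change with LPS in cells given DMSO. For Clec4e it was -1.13 (SE 0.29, 95% interval -1.74 to -0.52), negative on 4 of 4 days (-1.49, -0.35, -1.46 and -1.23), with an adjusted p of 0.113, so it was not called. The replicate block gave an adjusted p of 0.0707 and the slide block 0.0592. The fit that missed the call included DMSO replicate 2. That array was higher than the other DMSO arrays and made the LPS response of that day 1.90 against 2.87, 3.02 and 3.08 on the others. Without that array the interaction was -1.42 (adjusted p = 6.96e-05) and was called, and without the whole of replicate 2 it was -1.39 (adjusted p = 0.00463). The array stands out in these same values, so leaving it out narrows the spread (SE 0.12). Neither fit is therefore separate support for a call. None of the 5 receptors was called for the interaction by limma, against 0.365% of all genes, and 1 (Clec4e) had an unadjusted p under 0.05. The share of all genes at that looser threshold was not counted, and 0.554% had an adjusted p under 0.05.

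Within the first slide the Clec4e changes were 2.39 for LPS, -1.80 for cordycepin with LPS, -0.89 for cordycepin alone and -0.92 for the interaction, and within the second slide they were 3.05, -1.67, -0.32 and -1.35, where the interaction was called (adjusted p = 0.0476). With the slide as a block, the calls for LPS and for cordycepin with LPS stood. DMSO replicate 2 is on the first slide.

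**Figure D2:**
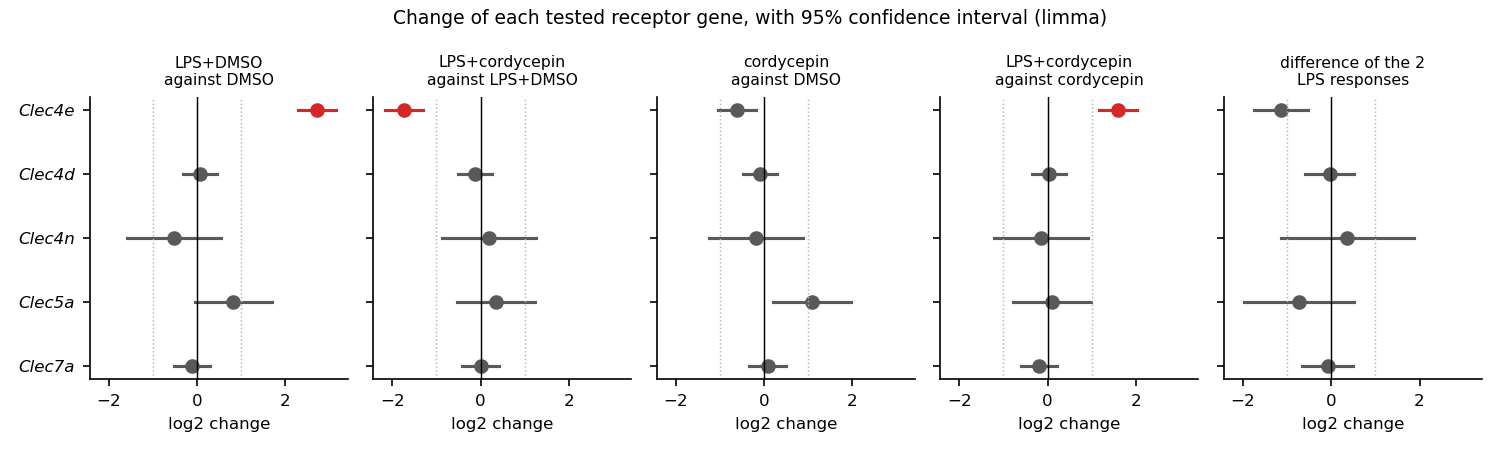
Change on the log2 scale (points) with its 95% confidence interval (lines) for the 5 receptor genes tested, in the 4 comparisons of conditions and for the interaction, with called changes in red and dotted lines at 2-fold. Clec4e is called at 2.72, -1.73 and 1.58, and the intervals of Clec4d and Clec7a lie within 2-fold in the 4 comparisons of conditions.

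Clec4d, which pairs with Mincle at the cell surface, was called in 0 of the 5 comparisons. It had log2 signals of 14.71, 15.55, 15.03 and 15.40 in DMSO, 14.81, 15.23, 15.10 and 15.20 in cordycepin, 14.82, 15.31, 15.40 and 15.47 in LPS+DMSO and 15.19, 14.88, 15.18 and 15.24 in LPS+cordycepin. The 4 conditions overlapped throughout. The change with LPS was 0.08 (95% interval -0.31 to 0.46, adjusted p = 0.874), and with cordycepin in LPS it was -0.12 (-0.51 to 0.26, adjusted p = 0.734). The interval for LPS lies wholly below that of Clec4e, although the difference between both genes was not tested.

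Clec4n encodes a receptor for fungal mannans. It had log2 signals of 9.15, 10.77, 10.44 and 11.71 in DMSO, 9.37, 10.52, 10.63 and 10.86 in cordycepin, 9.05, 9.99, 10.28 and 10.70 in LPS+DMSO and 9.32, 10.29, 10.41 and 10.78 in LPS+cordycepin. Replicate 1 was the lowest and replicate 4 the highest in 4 of 4 conditions, so the days of collection differed more than the condition means did. The day means, each a deviation from its condition mean averaged over conditions, ranged over 1.79 on the log2 scale, while the median of all genes was 0.26 and only 37 genes (0.233%) had a range as large. The cluster neighbours Clec4a1 and Clec4a3, which encode related receptors and were named after their values were seen, also had replicate 1 lowest in 4 of 4 conditions and replicate 4 highest in 3 of 4, with ranges of 0.74 and 0.54.

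The LPS change of Clec4n was -0.51 (SE 0.50, 95% interval -1.57 to 0.55, adjusted p = 0.610), with LPS+DMSO below DMSO on 4 of 4 days by 0.10 to 1.00. It was -0.97 without DMSO replicate 1 and -0.11 without DMSO replicate 4. With the replicate number as a block the SE was 0.16 and the adjusted p 0.0473, and as the change stayed under 2-fold it was not called. The change with cordycepin in LPS was 0.19 (-0.87 to 1.26, adjusted p = 0.866), a wide interval that includes a change of 2-fold in this fit without blocks. Pairing by day (replicate block) gave an SE of 0.16 for it and an adjusted p of 0.476 by limma. The differences on the 4 days were 0.27, 0.30, 0.12 and 0.07.

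**Figure D3:**
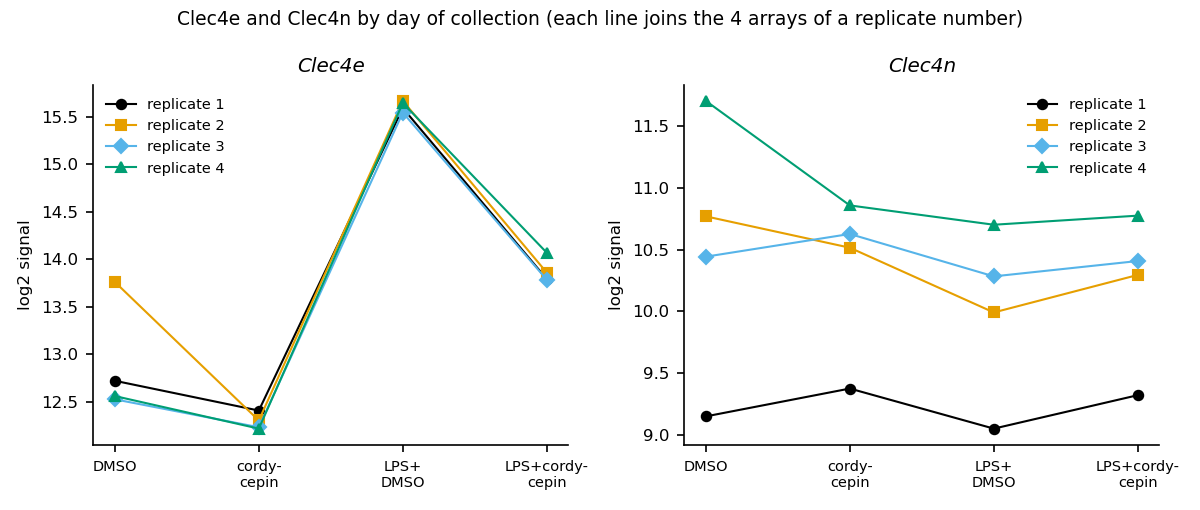
Log2 signal of Clec4e (left) and Clec4n (right) in the 4 conditions, with 1 line for each replicate number, that is each day of collection. The Clec4e lines lie together except for replicate 2 in DMSO (13.76), and the Clec4n plot has replicate 1 lowest and replicate 4 highest in every condition.

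Clec5a, a receptor of myeloid cells known to bind dengue virus, was dim. Its log2 signals were 6.56, 3.89, 6.18 and 5.94 in DMSO, 6.56, 6.56, 6.997 and 6.80 in cordycepin, 6.18, 6.55, 6.19 and 6.94 in LPS+DMSO and 6.66, 6.62, 6.98 and 7.03 in LPS+cordycepin. DMSO replicate 2 was low and not well above background, the other 15 arrays were, and the conditions overlapped. The lowest signal of any probe well above background lay between 4.11 and 6.32 across arrays. The change of Clec5a from DMSO to cordycepin was 1.09 (SE 0.41, 95% interval 0.21 to 1.97, adjusted p = 0.0938) and did not pass the threshold. Without DMSO replicate 1 it was called (1.39, adjusted p = 0.0331), and without DMSO replicate 2 the change was 0.50 (adjusted p = 0.113). The LPS change was 0.82 (-0.06 to 1.70, adjusted p = 0.225), and 0.24 without DMSO replicate 2 (adjusted p = 0.516).

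Clec7a, the receptor for fungal β-glucan, had similar condition means (10.15 to 10.35), with an SD of up to 0.42 within a condition (DMSO, n = 4). Its log2 signals were 10.69, 9.72, 10.49 and 10.18 in DMSO, 10.56, 10.28, 10.45 and 10.10 in cordycepin, 10.17, 10.28, 10.16 and 9.99 in LPS+DMSO and 9.85, 10.39, 10.46 and 9.89 in LPS+cordycepin. All 4 conditions overlapped, with DMSO replicate 2 the lowest array. The LPS change was -0.12 (95% interval -0.53 to 0.29, adjusted p = 0.793) and that with cordycepin alone 0.08 (-0.33 to 0.49, adjusted p = 0.841). With LPS, the mean was 10.15 both in DMSO and in cordycepin (95% interval of the change -0.41 to 0.41).

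The inhibitory receptors gave no measurable level. Clec12a was well above background on 0 of 16 arrays, with signals of 2.40 to 4.13, and Clec4a2 on 1 of 16, cordycepin replicate 3 at 5.34, with the other 15 arrays at 2.52 to 5.09. Their changes could not be tested, which does not show that the genes were off.

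Each tested receptor was also described by the 3 genes whose log2 signal followed it most closely over the 16 arrays, by Pearson r among 11601 other genes with a symbol. These arrays share conditions, days and slides, so r is a description. Clec4e was followed by Atf3, a stress-induced transcription factor (r = 0.992), Slc20a1, a phosphate transporter (0.986), and Nfkb2, an NFκB subunit (0.983). In those 3 genes the LPS change was 3.13, 1.88 and 1.40, and the change with cordycepin in LPS -2.01, -1.17 and -0.84. The nearest genes were Rdm1 (0.854), Gm14461 (0.758) and Rsrp1 (0.738) for Clec4d, Blvrb, a biliverdin reductase (0.895), Zfp771 (0.894) and the lysosomal mannosidase gene Man2b1 (0.857) for Clec4n, Sdf2l1 (0.945), Smpdl3b (0.939) and Hmmr (0.938) for Clec5a, and the transcription factor gene Maf (0.845), Dipk1a (0.791) and Clspn (0.789) for Clec7a. Clec4e itself had an r of 0.28 with Clec4d and -0.22 with Clec4n, and Clec4d and Clec4n one of 0.69.

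The partners that carry the signal of these receptors were counted in the same way. Of 32 signalling partners listed, 30 were tested and 0 were called by limma with LPS (4.59% of all genes), 0 with cordycepin in LPS (7.46%) and 0 with cordycepin alone (5.55%), and the median LPS change was 0.05 against -0.04 over all genes. Among 30 genes, 0 calls lies near the background given by these shares. The LPS change was -0.09, -0.04 and -0.30 for the adaptor genes Fcer1g, Tyrobp and Hcst, -0.14 for Syk and 0.01 for Card9, none past an adjusted p of 0.05. For Vav2, a guanine nucleotide exchange factor measurable above background on 2 of the 4 DMSO arrays, it was 1.08 (adjusted p = 0.266), and with cordycepin in LPS it was -1.36 (adjusted p = 0.133), past 2-fold in size and not called. These 6 and Malt1 were named after their values were seen. Bcl10, which bridges CARD9 and MALT1, rose with LPS in cordycepin (1.00, adjusted p = 0.00134) and was the 1 partner called in that comparison (3.33%, against 2.91% of all genes). In LPS+DMSO against DMSO the change of Bcl10 was 0.89 (adjusted p = 0.00217) and that of Malt1, which encodes the paracaspase of the complex, 0.81 (adjusted p = 0.000195), both short of 2-fold. They were the 2 partners under an adjusted p of 0.05 there, against 14.9% of all genes. With cordycepin in LPS the change of Malt1 was -0.90 (adjusted p = 4.18e-05), also short of 2-fold, and it was the 1 partner under an adjusted p of 0.05, against 19.2% of all genes.

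Few C-type lectin receptors outside the 7 passed the filter on dim probes. Of 40 listed, 10 were tested, among them Clec4a1, Clec4a3, Clec10a, Mgl2 and Cd302, and limma called 0 in each of the 5 comparisons, a count near the background, since the shares over all genes were 4.59, 7.46, 5.55, 2.91 and 0.365%. Without the 2-fold minimum, the 10 receptors gave 1 with an adjusted p under 0.05, Asgr2 in LPS+cordycepin against cordycepin (-0.39), against 8.15% of all genes, and it was named for that reason. The median change of the list was -0.14 with LPS and 0.11 with cordycepin in LPS.

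Genes known as targets of Syk-CARD9 signalling, which Toll-like receptors also induce, moved broadly. Of 22 listed, 14 were tested. With LPS 13 of 14 were called higher (92.9%, against 2.09% of all genes), with a median change of 4.57, or 4.08 with genes not well above background in DMSO counted at their lower bound. Il1b, Egr1, Csf3 and Il6, the last named for this reason, passed the filter on dim probes only through arrays with LPS. As the list was also chosen with earlier results of these data known, its counts in every comparison are descriptions. Tnf rose by 6.71, the NFκB feedback gene Tnfaip3 by 5.24 and the chemokine gene Cxcl2 by 10.09, with 2 of the 4 DMSO arrays well above background. Il1b was at least 77.1-fold, Egr1 at least 15.7-fold and Csf3 at least 12.5-fold higher, since none of these was well above background on any DMSO array (bound from the lowest signal measurable on those arrays, adjusted p = 8.39e-10, 3.02e-09 and 3.86e-07).

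With cordycepin in LPS, 7 of the 14 were called lower (50%, against 1.52% of all genes) and 0 higher, with a median of -1.06. Of the 332 genes called higher with LPS, 68 (20.5%) were called lower here, with a median change of -0.52. Both comparisons share the LPS+DMSO arrays. The changes were -1.73 for Il1b, -1.85 for Csf3 and -1.07 for Tnf, beside -1.73 for Clec4e, and Csf3 was well above background on 3 of the 4 LPS+cordycepin arrays. The changes of Cxcl2 (-0.69, adjusted p = 0.504), Egr1 (0.21, adjusted p = 0.680) and Tnfaip3 (-0.94, adjusted p = 8.59e-05) were not called by limma. With cordycepin alone Cxcl2 was called higher (1.91, adjusted p = 0.0341), the 1 gene of the list called in that comparison (7.14%, near the 5.55% of all genes). Its DMSO mean was 5.78 ± 1.77 (SD, n = 4), with 2 of the 4 arrays well above background, so the size of this change is uncertain. In LPS+cordycepin against cordycepin 12 of the 14 rose (85.7%, against 1.69% of all genes). For the interaction 2 were called lower, Tnf (-1.55) and Tnfaip3 (-1.20), against 0.17% of all genes.

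**Figure D4:**
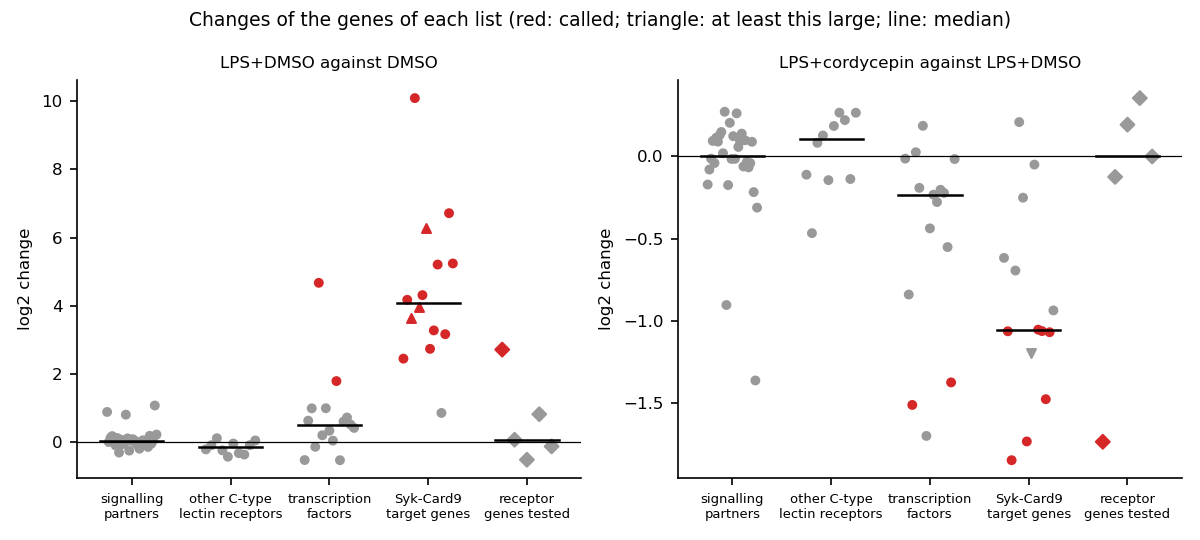
Log2 change of every tested gene of each list (points) and of the 5 receptor genes (diamonds) with LPS (left) and with cordycepin in LPS (right), with called genes in red, lower bounds of the size of a change as triangles and medians as lines. No signalling partner or other receptor is called in either comparison, with the dim gene Vav2 (1.08 and -1.36) the partner farthest from 0, and Clec4e is at 2.72 and -1.73.

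Of 16 transcription factors known from myeloid C-type lectin genes, 15 were tested. Fos (4.67) and Jun (1.79), subunits of AP-1, were called higher with LPS, with 3 of 4 DMSO arrays above background for Fos. These 2 of 15 stood against 2.09% of all genes called higher and 4.59% called in either direction. Without the 2-fold minimum, 7 of 15 had an adjusted p under 0.05 by limma, all higher, against 14.9% of all genes. Cebpd (0.997, adjusted p = 8.16e-06) and Runx1 (0.52, adjusted p = 0.0337) were among those 7. With cordycepin in LPS Cebpd, a C/EBP factor, fell by 1.51 and Runx1 fell by 1.37 (2 of 15, against 7.46% of all genes), while Fos and Jun were not called (-0.19 and -0.28). Here 4 of 15 had an adjusted p under 0.05 by limma without the 2-fold minimum, all lower, against 19.2% of all genes. Runx1 also fell by 1.14 with cordycepin alone, the 1 of 15 called there (6.67%, near the 5.55% of all genes). In LPS+cordycepin against cordycepin Fos (4.53) and Jun (1.95) were called (2 of 15, against 2.91% of all genes), and 0 of 15 were called for the interaction by limma (0.365% of all genes), with 1 under an adjusted p of 0.05 (Cebpd, -0.90, short of 2-fold), against 0.554% of all genes.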

How the data were processed

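The authors deposited 2 kinds of file for the 16 arrays. The scanner files hold spot intensity that, per the file headers, Agilent Feature Extraction had measured and background-subtracted, and this processed intensity was used. A value table deposited by the authors, on a log2 scale and covering 23730 probes, was normalized in a way not given in the sources used here and served as an alternative. Cy3 labelling used a kit primed from the poly(A) tail, and tail length was not measured.

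After log2 transformation and removal of outlier spots, spots of a probe were averaged (127 missing values). Arrays were aligned at their 75th percentile, taken over 18064 probes that all arrays measured well above background. A probe was kept if 1 condition or more had it well above background on its 4 arrays (21597 probes), and the brightest probe stood for each of 15877 genes. A single limma fit (3.58.1, R 4.3.3) of condition means covered all arrays, and p was adjusted by Benjamini-Hochberg. The procedure was tested on simulated data with independent noise and no effect of day or slide, so that test does not cover correlation between arrays. Tables and plots were made with Python 3.11.15, numpy 2.4.6, pandas 2.3.3 and matplotlib 3.10.9. The number of arrays limits the precision.

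The pairing by replicate number comes from the series' design text (a different day for each replicate) and the treatment protocol (all conditions on 1 plate). Residuals correlated by 0.20 on average (-0.06 to 0.44) between arrays that share a number, by 0.18 between other arrays of a slide and by -0.19 across slides. Probe positions are those of the files (mm9), and promoters come from RefSeq (GRCm38.p6). The members and the gene lists were chosen with earlier results of these data known. Genes named are the 7 members, the called genes of each list (at most the 6 with the largest change in any comparison), the 3 genes most like each member, and others only where said. Alternatives comprised 4 other scalings, normexp with an offset of 50, the value table, other filters, thresholds and probe choices, blocks, single slides, an intensity trend with robust estimation, the methods' univariate test and leaving out replicates or arrays.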

Additional observations from a re-analysis of the deposited data

Results flagged for a closer look

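Clec4e in DMSO replicate 2 stood far from the other arrays of its condition. Its log2 signal of 13.76 lay above the other 3 (12.53 to 12.72) by 0.842 of the range of the 4, over Dixon's 95% critical value. It was the 1 case among 20 groups of 4 arrays screened for the 5 tested receptors, and chance gives about 1 in 20. On that array 37.0% of the 332 genes called higher with LPS had their highest DMSO value, against 35.1% of all genes. On the same array Clec4d also had its highest DMSO value (15.55), Clec5a and Clec7a had their lowest, and Clec4n lay in between (10.77). The part of the array in the Clec4e value was not tested.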

How the results depend on the processing

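The Clec4e changes with LPS (2.39 to 3.05) and with cordycepin in LPS (-1.86 to -1.67) kept their direction and their side of the threshold under all 40 alternatives each. The count of receptors called for LPS in cordycepin went from 1 to 0 with scaling to spiked-in controls and within the first slide, and for the interaction from 0 to 1 within the second slide. Leaving out replicates or single arrays, it ranged from 0 to 1 for the interaction and for cordycepin alone. Pairing by day (replicate block) left all 5 counts of receptors called as they were. Of 980 alternatives for 25 receptor changes, 54 turned the direction, all of changes that were not called, and the cause was not tested. Spiked-in scaling gave -0.034 for LPS and -0.26 for LPS in cordycepin in Clec4d, and -0.21 for LPS in cordycepin in Clec5a. The value table gave -0.024 for Clec4d with LPS, 0.076 for its interaction, -0.011 for Clec5a and 0.014 for Clec7a with cordycepin in LPS. For this Clec7a change quantile normalization gave 0.0071, the median 0.012, normexp 0.017 and the second slide 0.11. Quantile normalization gave 0.042 for the Clec4d interaction. The first slide gave -0.065 for Clec4d and 0.023 for Clec7a with LPS and 0.081 for the Clec4d interaction, and the second slide -0.058 for Clec7a with cordycepin alone and 0.16 for its interaction. With replicates or arrays left out in turn, Clec4d ranged from -0.076 to 0.22 with LPS, -0.24 to 0.038 with cordycepin, -0.074 to 0.17 with LPS in cordycepin and -0.18 to 0.12 for the interaction. Clec4n ranged from -0.97 to -0.11 with LPS, -0.13 to 0.49 with cordycepin in LPS, -0.63 to 0.22 with cordycepin, -0.47 to 0.15 with LPS in cordycepin and -0.030 to 0.82 for the interaction. Clec7a ranged from -0.35 to 0.021 with LPS, -0.11 to 0.11 with cordycepin in LPS, -0.10 to 0.22 with cordycepin and -0.22 to 0.10 for the interaction. Scaling to the spiked-in controls moved the median change of all genes to -0.15 with LPS, -0.10 with cordycepin in LPS, -0.35 with LPS in cordycepin and -0.18 for the interaction. Over all genes, the number called moved by over 1.5 times under some alternatives. It went from 728 with LPS to 371 with normexp, 454 in the value table and 380 with the filter on all arrays, and from 1184 with cordycepin in LPS to 697, 774 and 524. With cordycepin alone it went from 881 to 393, 586 and 347. In LPS with cordycepin against cordycepin it went from 462 to 257 with normexp, 221 with that filter and 307 within the first slide. The interaction went from 58 genes to between 5 within the first slide and 115 with the slide block, with 109 under the replicate block.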
